A study of Mus musculus with 6 samples.

Results

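The 34 genes described here are markers of pericytes and vascular smooth muscle cells, together called mural cells, measured by RNA sequencing in the cerebral cortex of mouse embryos. They were chosen by gene symbol from a list of mural markers, most of which are not classic targets of the transcription factor SRF. All 34 were found among the 27179 genes of the deposited table. The samples were cortices of C57BL/6N embryos at E18.5, shortly before birth. The Control group (3 libraries, named FF1, FF2 and FF4) was Cap1 flx/flx, that is, both Cap1 alleles were flanked by recombination sites and no Cre was present. The CAP1-KO group (3 libraries, FCRE3, FCRE4 and FCRE5) carried the same alleles together with Nestin-CRE, a Cre recombinase under the Nestin promoter, a driver of expression in progenitors of the nervous system. CAP1 is an actin-binding protein that helps turn over actin filaments. The design has no Cre-only group, and CAP1 loss and the presence of Cre cannot be told apart.

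Pericytes sit on capillaries inside the basement membrane of the endothelium, and smooth muscle cells wrap arteries and arterioles. Endothelial cells recruit mural cells by secreting PDGF-B, which acts on the receptor PDGFRB, and Notch signalling through NOTCH3 maintains smooth muscle cells. In the brain these cells help to form the blood-brain barrier and set vessel tone, and forebrain mural cells arise largely from the neural crest. SRF, with its myocardin-family coactivators, drives the contractile genes of mature smooth muscle, and the series title concerns such SRF-dependent genes. The comparison below asks whether mural markers, most of them outside that contractile set, differed between the groups.

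Recovered depth was 32443864 to 36302598 reads per library, and 1 CPM (the unit of the authors' normalized read counts, scaled to library size) stood for 31.2 to 37.3 reads. Cap1 itself was at 184 ± 16.2 CPM (Control) against 85.1 ± 1.999 CPM (CAP1-KO; mean ± SD, n = 3 per group). FF4 stood apart from the other Control libraries: the chi-square per gene between replicates was 27.8 and 36.5 for its pairs, 8.76 for FF1 with FF2, and 5.56 to 10.9 among the CAP1-KO pairs. Embryo sex was unbalanced, with Xist at 0.58 CPM in FF1 and 2.05 CPM in FF4, against 2296 CPM in FF2 and 2398 to 2653 CPM in CAP1-KO. FF2 was the only Control library with Xist near the CAP1-KO level. In the fits with Xist as a covariate, the group difference therefore rests in effect on FF2 as the Control. The labels call the samples biological replicates without naming litters, so p-values measure the spread between these samples. In bulk tissue, fewer cells of a type and less RNA per cell cannot be told apart.

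The summed level of the mural genes was similar in the groups. The 34 genes together summed to 277, 271 and 288 CPM in FF1, FF2 and FF4, and to 269, 283 and 299 CPM in FCRE3, FCRE4 and FCRE5, so the ranges overlapped. Most of the sum came from Notch3, Rgs5, Pdgfrb, Eln, Abcc9 and Cspg4, so it says little about the genes of lower level. Of the 29 genes whose mean reached 1 CPM, 0 passed the test in either direction (limma's two-sided test on log2(CPM + 1), Benjamini-Hochberg adjusted p under 0.05 over all genes), where 0.965% of all 13885 tested genes did. The count was also 0 with limma-voom on recovered reads. At an unadjusted p under 0.05 there were 6 of 29, or 20.7%, against 23% of all tested genes. Groups did not overlap for 4 of 29, or 13.8%, against 25.6% of all tested genes. Kcnmb1, Casq2 and Lmod1, which were below the filter, also did not overlap and are outside this count. The median log2 fold change was 0.04 over the 29 genes and 0.05 over all 34 with no filter, against -0.01 over all genes tested.

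A missed threshold does not show equal levels, so the 95% intervals of the fold changes were examined. For 22 of 29 genes the whole interval lay within 1.5-fold either way on the log2(CPM + 1) scale (a bound chosen after the values were seen). That is 75.9%, against 87.2% of all tested genes. The other 7 were Vtn, Cspg4, Npnt, Bcam, Atp13a5, Tbx18 and Smtn. Because this scale understates changes of low genes, the count does not bound their change in CPM at 1.5-fold. Des, with an upper limit of 0.56 on this scale, is an example. The genes not tested, all under 1 CPM on average, were Kcnmb1, Casq2, Lmod1, Aoc3 and Map3k7cl. Des passed the filter with a Control mean of 0.91 CPM, below 1 CPM, and a CAP1-KO mean of 1.11 CPM.

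**Figure D1:**
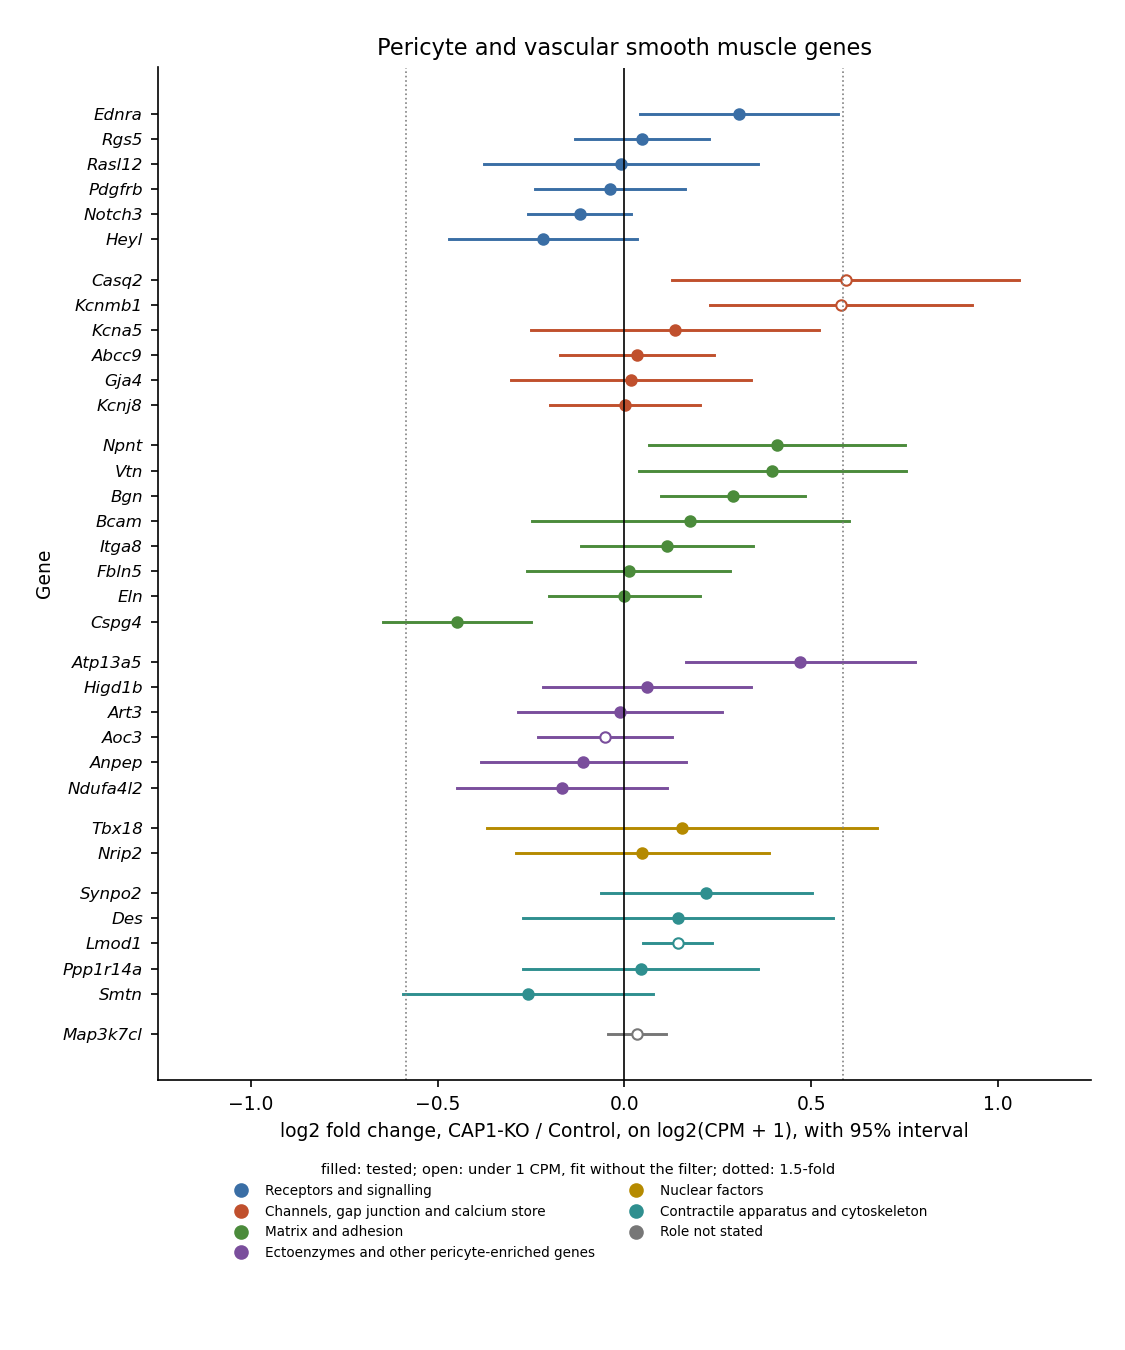
Log2 fold change of each of the 34 genes (points) with its 95% limma interval (lines), on the log2(CPM + 1) scale, grouped by role. Filled points were tested and none passed. Open points are the 5 genes under 1 CPM, fitted without the filter. The scale understates a change in these 5 genes and in tested genes of low level. Dotted lines mark 1.5-fold on this scale.

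Of the 34 genes, 10 were taken as defining mural markers. They are Pdgfrb, Rgs5, Kcnj8, Abcc9, Notch3, Higd1b, Vtn, Anpep, Atp13a5 and Cspg4. All 10 were detected in every library, which cannot test the label of the set, since they belong to it. Their summed level was 171 to 184 CPM in Control and 165 to 189 CPM in CAP1-KO. Per kilobase of annotated exon, the highest Control levels among the 34 genes were those of Rgs5 (7.33 ± 0.60 CPM per kb), Vtn (6.91 ± 1.222), Pdgfrb (5.20 ± 0.35), Notch3 (4.74 ± 0.17) and Higd1b (3.26 ± 0.43). The libraries of Rgs5 and Vtn overlapped, as did those of Pdgfrb and Notch3. The lowest were Lmod1 (0.023 ± 0.007 CPM per kb) and Kcnmb1 (0.034 ± 0.040).

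Among the 6 receptor and signalling genes, 0 passed the test, and the groups overlapped for the receptors that define mural cells. Pdgfrb, the PDGF-B receptor, measured 28.4, 26.6 and 30.4 CPM in FF1, FF2 and FF4 and 28.1, 24.8 and 30.4 CPM in FCRE3, FCRE4 and FCRE5. The groups overlapped almost fully, and the log2 fold change was -0.04 (95% interval -0.24 to 0.16, limma adjusted p = 0.822). Rgs5, a regulator of G-protein signalling and a standard pericyte marker, measured 31.5, 32.0 and 36.5 CPM in Control, against 31.9, 35.0 and 36.4 CPM in CAP1-KO (a log2 fold change of 0.05, interval -0.13 to 0.23, limma adjusted p = 0.748). Notch3, the Notch receptor of mural cells and the gene of highest CPM in this group, measured 39.9, 37.7 and 37.3 CPM in Control. In CAP1-KO it measured 34.3, 33.9 and 37.5 CPM, so that FCRE5 lay inside the Control range and the other 2 libraries below it. Its log2 fold change was -0.12 (interval -0.26 to 0.02, limma adjusted p = 0.271).

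Heyl, a transcriptional repressor induced by Notch, was 4.51 ± 0.41 CPM in Control, against 3.74 ± 0.42 CPM in CAP1-KO (n = 3 each; log2 fold change -0.22, limma adjusted p = 0.271), with overlapping groups. Ednra, the endothelin receptor that constricts smooth muscle, was the only gene of the 6 whose groups did not overlap. It measured 4.58, 4.91 and 5.29 CPM in Control, against 5.44, 6.31 and 7.35 CPM in CAP1-KO. The lowest CAP1-KO library lay just above the highest Control library, FF4, and the log2 fold change was 0.31 (interval 0.04 to 0.57, limma adjusted p = 0.168). Rasl12, a small Ras-like protein, was 6.42 ± 1.2 CPM in Control, against 6.36 ± 1.12 CPM in CAP1-KO (n = 3 each).

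For the ATP-sensitive potassium channel of pericytes, neither subunit gene passed the test, and both intervals lay within 1.5-fold. Only the RNA was measured, not the channel protein. Kcnj8 encodes the pore of this channel and Abcc9 its sulfonylurea receptor subunit, and the genes are neighbours (GRCm38 chromosome 6, 142564837 to 142571614 and 142587862 to 142702766). Abcc9 measured 23.6, 24.7 and 25.4 CPM in Control, against 24.3, 22.8 and 28.8 CPM in CAP1-KO (a log2 fold change of 0.03, interval -0.17 to 0.24, limma adjusted p = 0.849). Kcnj8 measured 6.67, 7.26 and 7.04 CPM in Control, against 6.997, 6.45 and 7.58 CPM in CAP1-KO (a log2 fold change of 0.00, interval -0.20 to 0.20, limma adjusted p = 0.994). For each gene the Control range lay inside the CAP1-KO range. In both, FCRE4 was the lowest and FCRE5 the highest of all 6 libraries. Gja4, the gap junction protein connexin 37, was 4.36 ± 0.75 and 4.42 ± 0.67 CPM, and Kcna5, a voltage-gated potassium channel, 1.87 ± 0.39 and 2.17 ± 0.55 CPM (Control and CAP1-KO, n = 3 each). The groups overlapped for both.

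Matrix and adhesion genes made up 4 of the 6 tested genes at an unadjusted p under 0.05 (limma), although 0 of 8 passed the test. That is 50% of the 8, against 23% of all tested genes. Eln, the gene of elastin, which makes arterial walls elastic, had the highest CPM of the 8. It measured 24.9, 26.3 and 25.9 CPM in Control, against 23.2, 29.3 and 25.01 CPM in CAP1-KO. The CAP1-KO libraries spread to either side of the Control libraries, and the log2 fold change was 0.00 (interval -0.20 to 0.20). Fbln5, which helps to assemble elastic fibres, was 1.53 ± 0.14 and 1.56 ± 0.21 CPM, and Itga8, an integrin chain, 4.42 ± 0.27 and 4.87 ± 0.51 CPM (Control and CAP1-KO, n = 3 each).

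Cspg4, the proteoglycan NG2 (GRCm38 chromosome 9, 56865104 to 56899870), was the tested gene with the largest decrease in CPM among the 29 and the one closest to the threshold. It measured 24.0, 23.0 and 21.8 CPM in FF1, FF2 and FF4, and 15.1, 18.52 and 16.1 CPM in FCRE3, FCRE4 and FCRE5. The highest CAP1-KO library was below the lowest Control library, and the CAP1-KO mean was 72.3% of the Control mean. The log2 fold change was -0.45 (SE 0.08, interval -0.65 to -0.25, limma adjusted p = 0.0618). In the authors' deposited table the log2 fold change of Cspg4 is -0.47, at an FDR of 0.0461, and it is the only one of the 34 genes below 0.05 there, against 0.813% of all genes of that table. It passed here without FF4 (log2 fold change -0.48, limma adjusted p = 0.00487) and without FCRE4 (-0.53, limma adjusted p = 0.0354), where it was the only one of the 34 genes to pass, against 1.82% of all genes tested in that fit.

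Cspg4 is also a marker of oligodendrocyte precursors, and a list of 10 precursor markers, written after the values were seen, was set beside it. In that list 0 of 9 tested genes passed, with a median log2 fold change of -0.15, negative in 6 genes and positive in 3. Groups did not overlap for 2 of the 9, or 22.2%, against 25.6% of all tested genes. The summed level of all 10 was 846 to 882 CPM in Control and 748 to 811 CPM in CAP1-KO, without overlap. None of the 10 was at 0 in all libraries. Olig2, a transcription factor of that lineage, was picked after its values were seen, and its decrease is larger than the list's median. It measured 33.8, 32.0 and 26.9 CPM in Control, against 20.9, 26.7 and 20.6 CPM in CAP1-KO (log2 change -0.43, limma adjusted p = 0.111). As for Cspg4, FCRE4 was the highest CAP1-KO library. The part of precursor cells in the Cspg4 difference was not tested.

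Vtn, Npnt and Bgn had higher means in CAP1-KO. Vtn, the gene of vitronectin, which brain pericytes secrete into the basement membrane, measured 13.4, 11.9 and 16.8 CPM in Control, against 15.4, 18.7 and 22.3 CPM in CAP1-KO (a log2 fold change of 0.40, interval 0.04 to 0.75, limma adjusted p = 0.18). Npnt, the gene of nephronectin, a ligand of the integrin that contains Itga8, measured 6.99, 5.98 and 9.34 CPM in Control, against 10.7, 10.6 and 8.98 CPM in CAP1-KO (a log2 fold change of 0.41, interval 0.07 to 0.75, limma adjusted p = 0.161). In both genes FF4 was the highest Control library and overlapped the CAP1-KO range.

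Bgn, the small proteoglycan biglycan, measured 9.97, 8.72 and 9.76 CPM in Control, against 11.5, 11.3 and 12.7 CPM in CAP1-KO. The groups did not overlap (log2 fold change 0.29, interval 0.10 to 0.48, limma adjusted p = 0.113). Bgn lies on the X chromosome, and FF2, the Control library with Xist, was the lowest of the 6. With the Xist level as a covariate the log2 fold change was 0.40 (limma adjusted p = 0.241). In effect that value compares CAP1-KO with FF2, the lowest library. Bcam, a laminin-binding adhesion molecule, ranged from 2.35 CPM in FF2 to 4.62 CPM in FF4 within Control and from 3.97 to 4.29 CPM in CAP1-KO.

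Bgn is also made by fibroblasts, and meningeal and perivascular fibroblast markers differed between the CAP1-KO libraries. Of 10 tested fibroblast markers 0 passed, with a median log2 fold change of 0.93, and the summed level of all 12 listed was 110 to 126 CPM in Control, and 108, 230.3 and 214 CPM in FCRE3, FCRE4 and FCRE5. Most of the sum came from Pdgfra and Igf2, which other cells of the cortex also express. Col3a1, a fibrillar collagen noticed after its values were seen, was at 4.49 to 5.02 CPM in Control and at 6.62, 17.2 and 21.3 CPM in FCRE3, FCRE4 and FCRE5. The part of fibroblasts in the Bgn difference was not tested. Tbx18, a transcription factor of mural cells and of meningeal fibroblasts, measured 1.06 to 1.28 CPM in Control and 0.67, 1.52 and 2.19 CPM in FCRE3, FCRE4 and FCRE5. FCRE3 was thus the lowest of the 6 libraries and FCRE5 the highest (log2 fold change 0.15, interval -0.37 to 0.68, limma adjusted p = 0.716). Nor was it tested for the spread of Tbx18.

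**Figure D2:**
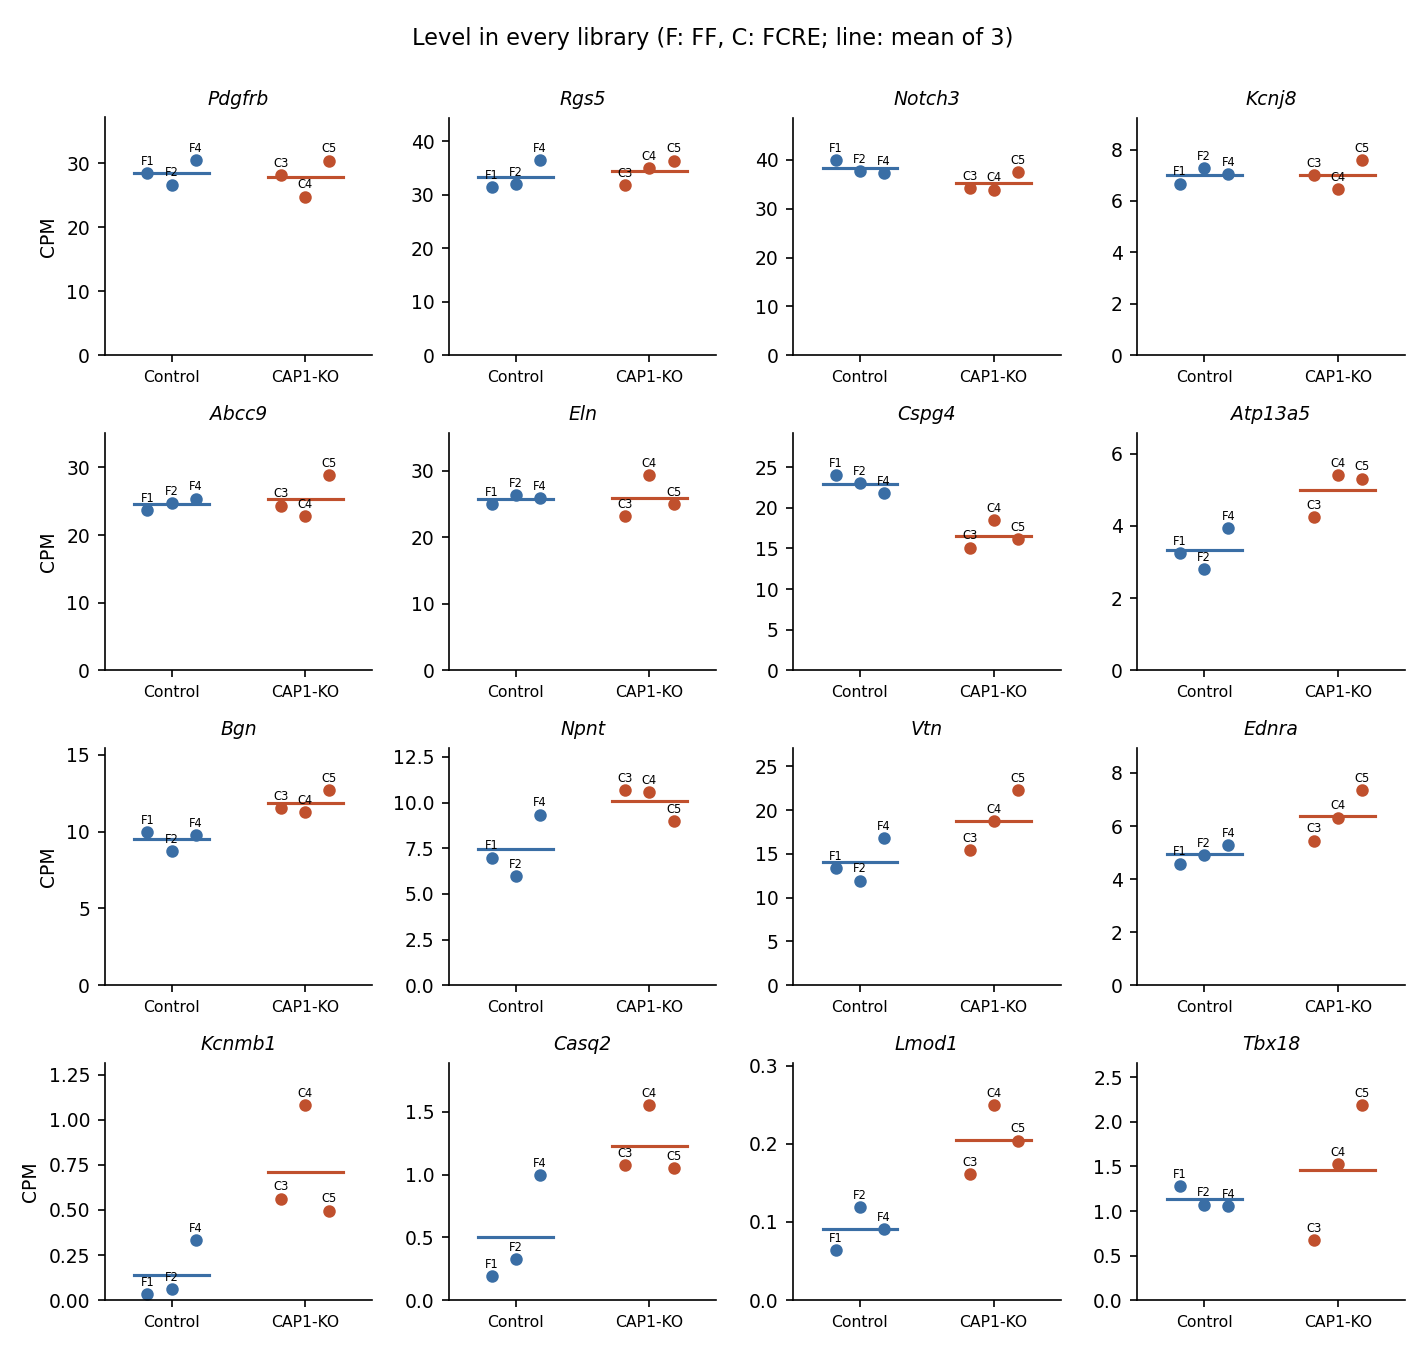
Level (CPM, linear axis from 0) of 16 of the genes in each library, labelled F for FF and C for FCRE, with lines at the group means. Pdgfrb, Rgs5, Kcnj8, Abcc9 and Eln overlap between the groups, the CAP1-KO points of Cspg4 all lie below the Control points, and those of Atp13a5, Bgn, Ednra, Kcnmb1, Casq2 and Lmod1 all lie above them.

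Among the ectoenzymes and other pericyte-enriched genes, 0 of 5 tested genes passed and Atp13a5 differed most. Atp13a5, a P5-type ATPase whose expression in the brain is largely limited to pericytes, measured 3.24, 2.80 and 3.93 CPM in Control, against 4.24, 5.40 and 5.30 CPM in CAP1-KO. All CAP1-KO libraries lay above all Control libraries, and the CAP1-KO mean was 149.9% of the Control mean. The log2 fold change was 0.47 (SE 0.13, interval 0.16 to 0.78, limma adjusted p = 0.111). Higd1b, a mitochondrial protein and pericyte marker, was 2.76 ± 0.36 CPM in Control, against 2.92 ± 0.35 CPM in CAP1-KO, and Anpep, the membrane peptidase CD13, 2.18 ± 0.23 and 1.95 ± 0.28 CPM (n = 3 each). Ndufa4l2, a mitochondrial protein, was 2.29 ± 0.29 and 1.93 ± 0.26 CPM, and Art3, an ADP-ribosyltransferase family member, 1.21 ± 0.07 and 1.19 ± 0.19 CPM. The groups overlapped in these 4 genes. Exons of Ndufa4l2 overlap those of Shmt2 on the opposite strand, and exons of Nrip2 those of Itfg2. Whether the counting used strand is not given in the sources used here, so their reads are uncertain.

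The nuclear factor Nrip2 measured 3.11, 3.42 and 4.804 CPM in Control, against 4.13, 4.13 and 3.44 CPM in CAP1-KO. The groups overlapped (log2 fold change 0.05, interval -0.29 to 0.39, limma adjusted p = 0.872). FF4 was the highest of the 6 libraries.

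Of the 5 genes of the contractile apparatus and cytoskeleton 4 were tested and 0 passed. Smtn, the gene of smoothelin, which binds actin in contractile smooth muscle and has a form in other tissues, measured 14.2, 13.4 and 9.88 CPM in Control, against 10.6, 8.78 and 11.3 CPM in CAP1-KO. FF4 lay within the CAP1-KO range and the other Control libraries above it (log2 fold change -0.26, interval -0.59 to 0.08, limma adjusted p = 0.325). Synpo2, an actin-binding protein of the Z-disc, was 3.18 ± 0.55 CPM in Control, against 3.84 ± 0.33 CPM in CAP1-KO (limma adjusted p = 0.322). Ppp1r14a, an inhibitor of myosin phosphatase, was 1.19 ± 0.07 and 1.27 ± 0.32 CPM, and Des, the intermediate filament desmin, 0.91 ± 0.34 and 1.11 ± 0.31 CPM (n = 3 each).

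Several genes below the 1 CPM filter had more reads in CAP1-KO, at a depth that leaves their fold changes uncertain. The share of all genes below the filter whose groups did not overlap was not computed, so these genes have no background beside them. Kcnmb1, the smooth muscle subunit of the calcium-activated potassium channel, had 1, 2 and 11 reads in FF1, FF2 and FF4 and 21, 39 and 17 reads in FCRE3, FCRE4 and FCRE5. Every CAP1-KO library was above every Control library, and most Control reads came from FF4. After depth, the ratio of the summed reads was 4.997 (95% exact interval 2.81 to 9.57, counting error only), and in the fit with no filter the log2 fold change was 0.58 (limma adjusted p = 0.154). Kcnmb1 lies within the span of Kcnip1 on the opposite strand, a gene measured at 29.7 CPM in Control, against 35.4 CPM in CAP1-KO, and the annotated exons do not overlap.

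Casq2, a calcium-binding protein of the sarcoplasmic reticulum, had 6, 11 and 33 reads in Control and 40, 56 and 36 reads in CAP1-KO. FF4, at 0.997 CPM, nearly reached the lowest CAP1-KO library, FCRE5, at 1.05 CPM. The ratio of summed reads after depth was 2.40 (95% exact interval 1.72 to 3.39), and the adjusted p was 0.201 (limma, no filter). Lmod1, leiomodin of smooth muscle and an actin nucleator, had 2, 4 and 3 reads in Control and 6, 9 and 7 in CAP1-KO, a ratio of 2.22 whose interval of 0.98 to 5.48 includes 1. Aoc3, a smooth muscle amine oxidase, had 29 reads in Control and 27 in CAP1-KO, and Map3k7cl 11 and 15.

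The ligand of the mural recruitment pathway was lower in CAP1-KO while its receptor was not distinguishable. Pdgfb, the endothelial growth factor that recruits pericytes, measured 13.0, 11.9 and 12.4 CPM in Control, against 7.51, 8.56 and 8.69 CPM in CAP1-KO, without overlap. It fell to 66.5% of the Control mean (log2 fold change -0.54, interval -0.73 to -0.35, limma adjusted p = 0.0309). The log2 fold change stayed between -0.59 and -0.48 over 13 alternatives. The call was kept in 6 of them, with an adjusted p of up to 0.238, and was lost without FF1, FF2, FCRE3 or FCRE5, with no filter, with scaling to total reads and with the Xist covariate. Eng, the TGF-beta coreceptor endoglin, fell from 21.2 ± 2.78 to 12.6 ± 0.77 CPM (n = 3 each; log2 fold change -0.70, limma adjusted p = 0.0279), with log2 values from -0.79 to -0.61 over the alternatives. Its call held in 7 of 13, with an adjusted p that reached 0.230. It lost the call without FF1, FF2, FCRE3 or FCRE5, with no filter and with the Xist covariate.

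Pdgfb and Eng were the only calls among 37 tested genes of the mural signalling pathways (PDGF, TGF-beta, Notch, angiopoietin, endothelin and sphingosine phosphate), where 0 rose and 2 fell. The list's median log2 fold change was -0.11, against -0.01 over all genes tested, and 0.403% of all tested genes fell. Foxf2, a transcription factor needed by brain pericytes, was noticed after its values were seen. It measured 5.58, 5.39 and 5.59 CPM in Control, against 2.95, 3.21 and 3.91 CPM in CAP1-KO, without overlap (log2 fold change -0.59, interval -0.83 to -0.34, limma adjusted p = 0.0545). The Notch ligands Jag1 (log2 fold change 0.03) and Dll4 (-0.20), and the TGF-beta receptor Tgfbr2 (-0.07), did not pass. Nor did Jag2 (-0.29), Dll1 (-0.23), Tgfb1 (-0.32), Smad7 (-0.32), Acvrl1 (-0.41) and Tie1 (-0.59), which had larger decreases. Over the list 25 genes had a negative log2 fold change and 12 a positive one, against 7176 and 6709 of all tested genes. Groups did not overlap for 11 of 37 genes, or 29.7%, against 25.6% of all tested genes. Ednrb, the other endothelin receptor, measured 60.2 ± 13.8 and 92.9 ± 9.16 CPM (n = 3 each; log2 fold change 0.64, limma adjusted p = 0.0886).

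Endothelial markers were measured in the same libraries. Of 14 tested endothelial markers 0 rose and 2 fell (Flt1 and Kdr, receptors for VEGF), where 0.403% of all tested genes fell. The median log2 fold change was -0.19, with 13 genes negative and 1 positive. Groups did not overlap for 6 of the 14, or 42.9%, against 25.6% of all tested genes. Flt1 kept its call in 9 of 13 alternatives and Kdr in 5 of 13 (limma adjusted p up to 0.0904 and 0.186), and both lost it with the Xist covariate and without FF1, FCRE3 or FCRE5, Kdr also without FF2 or FCRE4, with no filter and with scaling to total reads. The log2 fold change stayed between -0.89 and -0.71 for Flt1 and between -0.51 and -0.34 for Kdr. Tek and Tie1 are in this list and in the pathway list. The summed level of the 14 markers was 266 to 285 CPM in Control and 215 to 249.7 CPM in CAP1-KO, without overlap, and none of the 14 was at 0 in all libraries. The summed level of the 10 defining mural markers, divided by that of the endothelial markers, was 0.62, 0.60 and 0.69 in FF1, FF2 and FF4 and 0.77, 0.76 and 0.76 in FCRE3, FCRE4 and FCRE5. The ratio was higher in all 3 CAP1-KO libraries, with the mural sum overlapping and the endothelial sum not. It follows from these sums, adds no separate result on the mural genes and is not a ratio of cell numbers. The part of endothelial cells in the differences of Pdgfb and Eng was not tested.

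**Figure D3:**
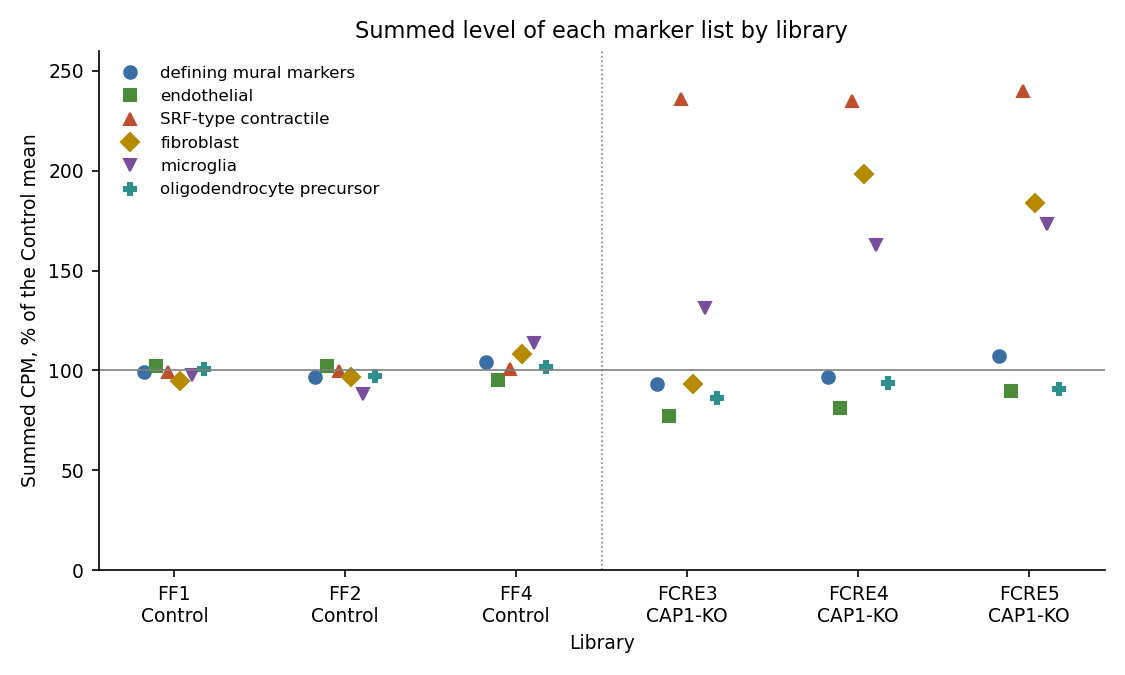
Summed CPM of 6 marker lists in each library, as a percent of that list's Control mean (y axis from 0). The defining mural markers stay near 100% in all libraries, endothelial markers are below it in CAP1-KO, and the SRF-type contractile genes lie far above it. The contractile sum is mostly Flna.

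Contractile genes of the SRF type, a list of 16 genes outside the 34, were mostly higher in CAP1-KO in the same libraries. Of 15 tested 13 rose and 0 fell, with a median log2 fold change of 1.92, where 0.562% of all tested genes rose. This list overlaps the SRF targets that the series title names, so it is not independent evidence of a direction. Acta2, smooth muscle actin and a common marker of mural cells, measured 0.64, 0.33 and 1.42 CPM in Control, against 35.7, 63.2 and 50.1 CPM in CAP1-KO. Tagln, the gene of transgelin, measured 0.58, 0.57 and 1.54 CPM in Control, against 13.8, 24.1 and 17.3 CPM in CAP1-KO (log2 change 3.36, limma adjusted p = 0.000889). Of the 10 defining mural markers 0 passed in the same libraries, and their 95% intervals differed. Those of Pdgfrb, Rgs5, Kcnj8 and Abcc9 lay between -0.24 and 0.24 on the log2 scale, and those of Notch3, Higd1b and Anpep also included 0. The intervals of Atp13a5 (0.16 to 0.78) and Vtn (0.04 to 0.75) lay above 0, and that of Cspg4 (-0.65 to -0.25) below it. The remaining tested contractile genes were Mylk (log2 fold change 0.10) and Pdlim7 (0.14). Srf rose (log2 fold change 0.69, limma adjusted p = 0.00515), a call that was lost with the Xist covariate and without FCRE5 (limma adjusted p up to 0.123, log2 fold change 0.61 to 0.75 over the 13 alternatives). Myocd, the smooth muscle coactivator, was at 0.073 ± 0.050 and 0.038 ± 0.045 CPM (n = 3 each), below the level of testing.

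**Figure D4:**
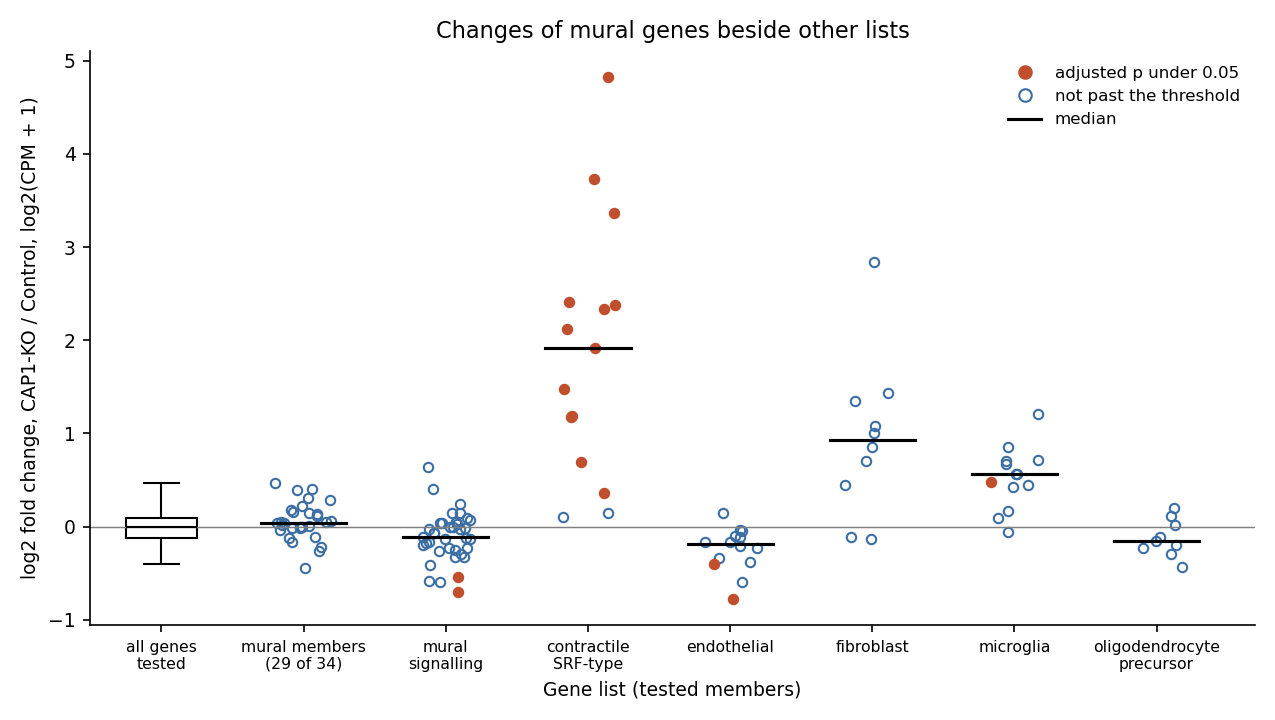
Log2 fold change on log2(CPM + 1) of the tested genes of each list, with filled points past the threshold, open points not, and bars at the medians. The box at the left shows all 13885 genes (median, quartiles, and whiskers over the central 95%). The mural genes lie around 0 as do all genes, and the contractile genes reach 4.83.

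Promoter sequences of both lists were searched, because SRF binds an element called the CArG box. RefSeq promoters (GRCm38.p6, 250 bases upstream of the start site) were found for 26 of the 34 mural genes and for 12 of the 16 contractile genes. The CArG box was searched as CC, 6 letters that are each A or T, and GG. Forms that differ in a letter were not counted. A match on either strand was present in 0 of 26 mural and in 3 of 12 contractile promoters, against 1.62% of the 27025 genes with a promoter. At so low a share of all genes, 0 of 26 does not set the mural promoters apart. The TEAD-type motif GGAATG was present in 7 of 26 and 6 of 12, against 14.4% of all genes, and the RBPJ-type motif TGGGAA in 7 of 26 and 4 of 12, against 24.1%. All were searched on both strands, and the last 2 motifs can share letters, as may be the case in the promoters of Abcc9, Art3, Kcna5, Smtn and Vtn, which held both. These matches describe letters in a window and not binding. The 3 contractile promoter stretches with a CArG box, given first, have it in capitals. They are Cnn2 (chr10:79988519-79988578, plus strand), Myl9 (chr2:156775278-156775337, plus strand) and Vcl (chr14:20929148-20929207, plus strand).
Cnn2: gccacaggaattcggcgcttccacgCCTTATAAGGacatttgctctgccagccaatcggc
Myl9: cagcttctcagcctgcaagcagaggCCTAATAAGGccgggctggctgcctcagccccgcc
Vcl: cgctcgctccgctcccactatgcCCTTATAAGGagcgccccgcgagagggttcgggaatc

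For comparison, 5 mural promoters were chosen as examples of genes with fold changes near 0 (Rgs5 and Kcnj8), of the gene nearest the threshold (Cspg4) and of low smooth muscle genes (Lmod1 and Casq2). They are Rgs5 (chr1:169655251-169655500, plus strand), Kcnj8 (chr6:142571615-142571864, minus strand), Cspg4 (chr9:56864854-56865032, plus strand), Lmod1 (chr1:135324563-135324806, plus strand) and Casq2 (chr3:102086165-102086414, plus strand). The stretches of Cspg4 and Lmod1 end before the first annotated exon. Capitals in Lmod1 mark GGAATG, and none of the searched motifs is in the other 4 stretches.
Rgs5: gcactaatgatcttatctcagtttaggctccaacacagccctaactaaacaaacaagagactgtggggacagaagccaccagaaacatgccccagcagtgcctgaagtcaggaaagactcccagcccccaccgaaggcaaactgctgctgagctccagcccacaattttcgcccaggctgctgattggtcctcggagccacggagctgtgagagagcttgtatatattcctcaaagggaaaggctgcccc
Kcnj8: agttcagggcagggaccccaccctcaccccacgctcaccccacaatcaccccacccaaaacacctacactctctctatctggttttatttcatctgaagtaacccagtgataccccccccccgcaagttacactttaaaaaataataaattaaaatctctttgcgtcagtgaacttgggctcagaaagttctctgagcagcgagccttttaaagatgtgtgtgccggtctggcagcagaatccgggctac
Cspg4: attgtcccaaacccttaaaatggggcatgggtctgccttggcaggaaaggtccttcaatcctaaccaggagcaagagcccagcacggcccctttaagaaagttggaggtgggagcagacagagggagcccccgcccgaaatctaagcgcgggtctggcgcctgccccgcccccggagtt
Lmod1: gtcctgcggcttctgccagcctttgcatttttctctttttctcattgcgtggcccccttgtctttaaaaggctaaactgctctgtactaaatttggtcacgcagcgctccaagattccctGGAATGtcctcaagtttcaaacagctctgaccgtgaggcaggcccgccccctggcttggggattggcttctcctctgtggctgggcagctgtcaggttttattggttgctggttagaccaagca
Casq2: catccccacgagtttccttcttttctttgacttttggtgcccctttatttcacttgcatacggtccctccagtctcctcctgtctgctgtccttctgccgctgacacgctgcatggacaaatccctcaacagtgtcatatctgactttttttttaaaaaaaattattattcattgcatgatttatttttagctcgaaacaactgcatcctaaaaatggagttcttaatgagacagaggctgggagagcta

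The count of called mural genes depended on FF4. Without FF4, 6 of 28 tested genes passed, or 21.4%, against 28.2% of all genes tested in that fit (limma). They were Atp13a5, Bgn, Npnt and Vtn, which were higher in CAP1-KO, and Cspg4 and Smtn, which were lower. Without FF4 the log2 fold changes of these 6 genes were 0.57 for Atp13a5, 0.31 for Bgn, 0.56 for Npnt, 0.52 for Vtn, -0.48 for Cspg4 and -0.41 for Smtn. Pdgfrb, Rgs5, Notch3, Kcnj8, Abcc9 and Eln did not pass in any of the 13 alternatives.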

How the data were processed

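Poly(A)-selected, strand-specific RNA libraries of E18.5 cortex were compared, 3 Control against 3 CAP1-KO. The deposited table holds, per the file headers, normalized counts on the log2 scale in 1 column per library. The authors' own comparison stands beside them, as deposited, with a log2 fold change, a log2 mean level, an F value (a score), a p-value and an FDR. Per the submitters' processing notes, STAR, edgeR, GRCm38 and mm10 were named. The sources used here do not give versions, the counter or filters. Columns were assigned to groups by the genotype in their names. Their numbers (1, 2 and 4, and 3, 4 and 5) do not run as the replicate numbers of the labels do (1 to 3), so columns were not matched to single samples.

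The shared lowest value (0.0584 CPM) was subtracted after the antilog. The result gave whole reads for 100% of values, within 0.01 of a read. The table holds normalized values, so limma 3.58.1 in R 4.3.3 was used with an intensity trend on log2(CPM + 1). It covered genes whose mean reached 1 CPM, with Benjamini-Hochberg adjustment over all 13885. A count model could have been fitted to the recovered reads, but only limma-voom was run on them, and edgeR was not. Exact permutation of 3 against 3 cannot go below p = 0.1. Fold changes on log2(CPM + 1) understate changes of low genes, and intervals of read ratios cover counting error only.

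Members and lists were chosen with earlier results of these data known. Every member is reported. In full are members past the threshold, those separated by at least 0.5 log2 units, and the highest of each role; other genes given in full were chosen after their values were seen, as was the precursor list. From each other list, called genes (at most 4) or the 2 highest were eligible, and those that bear on a mural result are named. Deposited symbols and gene identifiers were compared through the RefSeq gene table: they agreed for all 34 members and disagreed, by symbol and synonym, for 6333 of 24819 genes, so 14 of 144 list genes with such a conflict were left out. Exon lengths came from GENCODE M21 and coordinates from RefSeq GRCm38.p6. Alternatives were other size factors, scaling to total reads, limma-voom on recovered reads, no filter, a pseudocount of 0.1, the deposited values, an Xist covariate and leaving out each library. Skeletal muscle, red blood cell, microglia and choroid plexus markers were also measured. The test result of 1 list gene is not reported here. Figures used matplotlib 3.10.9.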

Additional observations from a re-analysis of the deposited data

How the results depend on the processing

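The count of all genes called, 134 in the main analysis, was 88 with no filter and 26 with the Xist covariate, and it ranged from 36 (without FCRE5) to 3914 (without FF4) when 1 library was left out. The called mural genes numbered 0 in the main analysis, 0 under each of the other size factors, voom, filter, pseudocount, deposited-value, total-read and Xist alternatives, and 0 to 6 with 1 library left out (1 without FCRE4, Cspg4, and 6 without FF4). The 13 SRF-type contractile genes that rose numbered 12 or 13 in every alternative. Scaling to total reads moved the median of all genes by 0.06.

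Of 374 alternative values of the 29 tested genes, 331 kept direction and side of the threshold, 7 passed the threshold and 36 changed sign, the last in 14 genes, none of them called in either setting. With scaling to total reads the log2 fold change was 0.0252 for Pdgfrb, 0.0485 for Rasl12, 0.0636 for Eln and 0.0242 for Art3. With the Xist covariate it was 0.0466 for Pdgfrb, -0.0533 for Kcnj8, -0.18 for Gja4 and 0.0043 for Art3, and with voom -0.00165 for Kcnj8. With 1 library left out it ranged from -0.10 to 0.0386 for Pdgfrb, -0.16 to 0.0794 for Rasl12, -0.0492 to 0.0524 for Kcnj8, -0.0596 to 0.10 for Abcc9, -0.0946 to 0.11 for Gja4, -0.0911 to 0.072 for Eln, -0.0348 to 0.0819 for Fbln5. Over the same libraries it ranged from -0.0399 to 0.33 for Bcam, -0.0654 to 0.0562 for Art3, -0.0203 to 0.13 for Higd1b, -0.0566 to 0.41 for Tbx18, -0.0523 to 0.20 for Nrip2, -0.000995 to 0.27 for Des, -0.0529 to 0.15 for Ppp1r14a. The cause of these sign changes was not tested. Depth limits Kcnmb1, Casq2, Lmod1, Aoc3 and Map3k7cl, which were under 1 CPM and were fitted only with no filter. No paired analysis was possible because the columns of the groups share only 1 number (4), which is no replicate number of the labels.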

Other observations

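Markers of other cell types outside the vessel wall were measured in the same libraries, and each summed level covers all genes of a list that were found, tested or not. The 13 tested microglia and macrophage markers had a median log2 fold change of 0.56 and a summed level of 60.8 to 78.4 CPM in Control and 90.4 to 119 CPM in CAP1-KO. Of 5 tested choroid plexus markers 1 rose (limma), Ttr, where 0.562% of all tested genes rose. The summed level of the choroid plexus list was 1.85 to 8.25 CPM in Control and 54.6 to 117 CPM in CAP1-KO. Of 5 tested skeletal muscle markers, Des among them, 0 passed, with sums of 6.19 to 10.5 CPM in Control and 9.65 to 21.2 CPM in CAP1-KO. Of 4 tested red blood cell markers 0 passed, with sums of 153 to 166 CPM in Control and 138 to 249 CPM in CAP1-KO. Their part in the mural values was not tested. No gene of these lists was at 0 in all libraries.

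The spread between replicates of the tested mural genes, as SD over mean, had a median of 10.4% in Control and 12.4% in CAP1-KO.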
